A study of Rattus norvegicus with 80 samples.

Results

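A set of 370 rat genes was examined whose transcripts stood higher in whole mammary pads than in the median mammary tumor of each of 3 lines of Nf1-mutated rats, and which no single normal mammary cell type monopolised. The members were chosen from measured values in 3 steps. Of 32883 gene identifiers, 13780 had a mean of at least 1 CPM (counts per 1e6, a gene's count divided by its library's total count and scaled to a total of 1e6) in wildtype mammary epithelial cells (MECs), adipocytes or fibroblasts. Of these, 12887 were not 16-fold higher in 1 of the cell types than in both others, and are called not-enriched genes here. In 370 of the 12887, which is 2.87%, the median CPM of pads plus 0.1 was at least 4 times the median of tumors plus 0.1 in each of the lines IF, PS and IFPS. The difference between pads and tumors therefore chose the members and is given as a description, with no test.

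The mammary pad holds an epithelial tree of ducts and lobules embedded in stroma, in which adipocytes store lipid and fibroblasts make the collagen-rich matrix, beside vessels, nerves and immune cells. Nf1 encodes neurofibromin, which switches Ras proteins off, so that its loss favours signaling through the MAP kinase cascade. In bulk RNA, fewer cells of a type and less RNA of a gene per cell cannot be told apart.

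The study took RNA from wildtype rats and from 3 lines that its labels name IF, PS and IFPS, all with mutated Nf1. The labels do not spell these names out and do not give the alleles, the age of the animals or the number of founders, so the lines are used here only as labelled. Pads came from 6 wildtype, 3 IF, 6 PS and 6 IFPS samples, and tumors from 5 IF, 9 PS and 9 IFPS samples. MECs, mature adipocytes and fibroblasts came from 3 samples each of wildtype, IF, PS and IFPS. The epithelial cells and fibroblasts were grown in culture to near confluency before extraction, while pads, tumors and mature adipocytes were extracted with Trizol. The series describes its normal tissues as flow sorted. Library totals ran from 17344717 to 37293141 counts, and all 80 libraries were used. The labels do not say whether the samples of a group came from separate animals, so p-values measure the spread between these samples, which may be partly technical.

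Identifiers of the members are Ensembl rat gene identifiers, and 0 of them could be joined to a gene symbol. What each member encodes, the markers that define the labelled cell types and the level of Nf1 were for that reason not analysed here. Members are described by their level, by the cell type in which they are highest and by their behaviour across groups, and 4 of them are given by identifier.

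The members were not stromal genes alone, as far as levels in wildtype cells show. In wildtype cells 160 of the 370 were highest in adipocytes, 134 in fibroblasts and 76 in MECs. At 1 CPM or more, 221 members were detected in all 3 wildtype cell types, 90 in exactly 2 and 59 in exactly 1. Not-enriched genes highest in adipocytes met the pad-to-tumor condition in 4.67% of 3424 cases and those highest in fibroblasts in 4.98% of 2691, against 1.12% of 6772 genes highest in MECs. The 76 members highest in MECs are kept in all counts below as a class of their own.

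Genes left out of the set because 1 cell type monopolised them met the same condition at other rates. It was met by 129 of 393 adipocyte-enriched genes (32.8%), 10 of 50 fibroblast-enriched genes (20.0%) and 8 of 450 MEC-enriched genes (1.78%). A further 279 genes that stayed under 1 CPM in every wildtype cell type also met it. In the opposite direction, 27 of the 12887 not-enriched genes had tumors at least 4-fold above pads in all 3 lines.

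The median of wildtype pads stood above the mean of every wildtype cell type for 211 of 370 members (57.0%), against 37.2% of all not-enriched genes. It stood at least 4-fold above the mean of every wildtype cell type for 61 members (16.5%), against 2.58% of all not-enriched genes. It was at least 16-fold above for 7 members (1.89%), against 0.248% of not-enriched genes. High pad levels took part in choosing the members through the pads of the mutated lines, so these shares are descriptions.

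Pad levels spanned a wide range. The mean over the 3 lines of the pad median ran from 0.698 to 23812 CPM with a median of 26.1 CPM. It reached 100 CPM in 79 members and 1000 CPM in 13. CPM is not scaled to gene length, so these levels place members only roughly beside each other. In tumors the median member stood at 2.04 CPM in IF, 1.91 CPM in PS and 2.73 CPM in IFPS, and the tumor median was under 1 CPM for 127, 143 and 114 members in that order.

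The ratio of pads to tumors, which chose the set, was largest in IF and PS. On the log2 scale with 0.1 CPM added, its median over the members came to 3.42 in IF, 3.39 in PS and 2.96 in IFPS, while all not-enriched genes gave -0.10, -0.20 and -0.10. Taken line by line, 6.18% of the 12887 not-enriched genes met the 4-fold condition in IF, 5.05% in PS and 4.12% in IFPS. IFPS gave the smallest ratio for 219 members, PS for 76 and IF for 75. The smallest ratio over the lines had a median of 6.49 and a maximum of 96.1. It was at least 8-fold in 140 members, at least 16-fold in 45 and at least 32-fold in 15. The members just inside the threshold had smallest ratios of 4.003, 4.04 and 4.05, and the genes just outside it 3.996, 3.98 and 3.97.

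**Figure D1:**
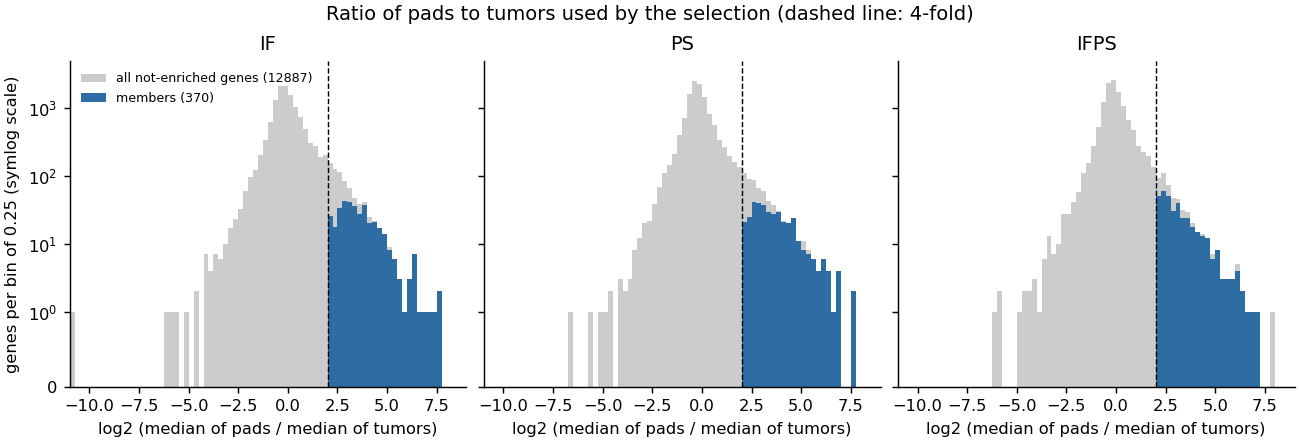
Number of genes (vertical axis, symlog scale) by log2 of the median of pads over the median of tumors, each plus 0.1 CPM (horizontal axis), for IF, PS and IFPS. Grey bars are the 12887 not-enriched genes and blue bars the 370 members; the members lie right of the dashed 4-fold line because they were chosen there, with medians of 3.42, 3.39 and 2.96.

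Library by library, pads and tumors were separated for most members in IF and PS and for few in IFPS. All IF tumors were below all IF pads for 308 members, all PS tumors below all PS pads for 296, and all IFPS tumors below all IFPS pads for 33. Over all not-enriched genes the same was true of 16.5% in IF, 8.87% in PS and 1.79% in IFPS. In all 3 lines 27 members had every tumor below every pad (7.30%, where 0.652% of not-enriched genes did), and another 27 in no line (7.30%, where 80.7% did). These values come from the libraries that chose the members, and nothing is read from them. Wildtype pads, which took no part in choosing the members, gave a similar size of difference: the median log2 ratio of wildtype pads to tumors was 3.42 for IF, 3.64 for PS and 3.17 for IFPS tumors. All 23 tumors were below all 6 wildtype pads for 42 members (11.4%), where 0.768% of not-enriched genes gave the same. Those tumors also chose the members.

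The 2 members with the highest pad levels, ENSRNOG00000003357 and ENSRNOG00000003897, were both highest in fibroblasts among the wildtype cells. ENSRNOG00000003357 was at 25919, 27632 and 36201 CPM in the IF pads and at 122, 1014, 1746, 2408 and 8955 CPM in the IF tumors. In PS it ranged from 16748 to 30974 CPM over pads (median 24999) and from 57.5 to 1525 CPM over tumors (median 793). In IFPS it ranged from 15556 to 30157 CPM over pads (median 18806) and from 406 to 15794 CPM over tumors (median 1776). Pads and tumors did not overlap in IF or PS, whereas IFPS tumor 9, at 15794 CPM, lay above the lowest IFPS pad.

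ENSRNOG00000003897 was also lower in the median tumor than in the pads of each line. It was at 23625, 24302 and 29343 CPM in the IF pads and at 191, 1374, 2965, 5788 and 19560 CPM in the IF tumors. PS pads held 14304 to 26304 CPM (median 22185) and PS tumors 97.3 to 1707 CPM (median 902). IFPS pads held 13311 to 30113 CPM (median 16721) and IFPS tumors 426 to 16081 CPM (median 1336). IF tumor 1, at 19560 CPM, lay just below the lowest IF pad, and IFPS tumor 8, at 16081 CPM, overlapped the IFPS pads. Together these 2 genes took 2.89% to 8.09% of all counts in pads and 0.0204% to 2.997% in tumors.

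The decrease was not present in every tumor. The median over members of log2 tumor over the pads of its line ran from -4.16 to -2.51 in the 5 IF tumors and from -4.27 to -2.44 in the 9 PS tumors. Among the 9 IFPS tumors it ran from -3.52 to -2.39 in tumors 1 to 5 and 7. In IFPS tumor 8 it was -2.84, inside that range, in tumor 9 it was -0.76, and in tumor 6 it was 0.15. Members above the IFPS pad median numbered 199 in tumor 6, 148 in tumor 9 and 63 in tumor 8, and 0 to 25 in each of the other 20 tumors. These 3 tumors also had low levels of MEC-enriched genes, whose median log2 ratio to pads was -1.99 in tumor 6, -3.56 in tumor 8 and -4.05 in tumor 9, against -0.01 to 1.47 in the other 20. Adipocyte-enriched genes stood at 0.50 in tumor 6, -2.17 in tumor 8 and -1.12 in tumor 9, against -2.27 to -0.49 in the other 20. Fibroblast-enriched genes stood at -0.32, -0.72 and -0.05 in tumors 6, 8 and 9, against -1.98 to -0.13 in the other 20. The part of these gene sets in the result was not tested.

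IFPS tumors 6 and 9 kept different portions of the set, and tumor 8 kept fewer members than either. In IFPS tumor 8, 234 members were 4-fold or more below the pad median, against 69 in tumor 6 and 111 in tumor 9. The other 20 tumors had 232 to 368 such members. At most 25 members were above pads in any of these 20, against 63 in tumor 8. Members took 6.865% of the counts of tumor 8, where IFPS pads gave 7.02% to 13.7%. In tumor 6 the members highest in wildtype adipocytes stood above pads, with a median log2 ratio of 0.66, and those led by MECs and fibroblasts stood at -0.63 and -0.43. In tumor 9 the order was turned round, with 0.17 for members led by MECs, -0.30 for those led by fibroblasts and -1.46 for those led by adipocytes. Tumor 8 had the same order as tumor 9 at lower levels, with -1.97, -2.68 and -3.35. Members above pads in both tumors 6 and 9 numbered 83, which is 41.7% of those in tumor 6 and 56.1% of those in tumor 9, and 12 were above pads in all 3. In the other 6 IFPS tumors, all were below all IFPS pads for 311 members, where all not-enriched genes gave 11.6%.

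**Figure D2:**
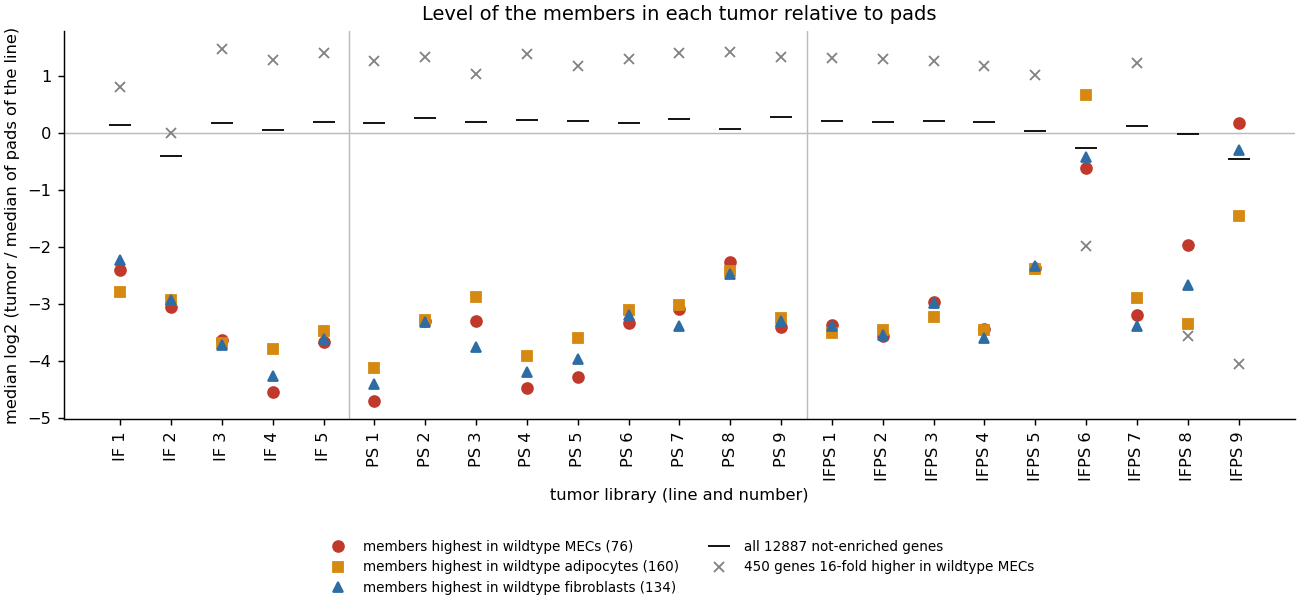
Median log2 ratio of each tumor to the median of the pads of its line (vertical axis) for every tumor library (horizontal axis), with members grouped by the wildtype cell type in which they are highest (coloured symbols), for all 12887 not-enriched genes (dashes) and for 450 MEC-enriched genes (crosses). The members lie between -4.71 and -1.97 in 21 tumors, while IFPS tumors 6 and 9 reach 0.66 and 0.17.

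Without IFPS tumors 6, 8 and 9 the rule gave 416 members, of which 368 belonged to the 370. The spread between tumors was larger for members than for other genes: the median SD of log2 CPM over members reached 1.04 (IF), 1.01 (PS) and 1.77 (IFPS), and over all not-enriched genes 0.40, 0.30 and 0.56. In pads the members' median SD was 0.36 in IF, 0.49 in PS, 0.43 in IFPS and 0.43 in wildtype, against 0.17 to 0.27 for all not-enriched genes.

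Tumors of the 3 lines were set beside each other as a description, because the same tumors had entered the choice of members. With edgeR's quasi-likelihood test and Benjamini-Hochberg adjustment, 103 of the 345 members with enough counts (29.9%) differed among IF, PS and IFPS tumors, and of all 15966 genes tested 7.65% did. IFPS tumors had the highest fitted level for 96 of the 103, IF tumors for 7 and PS tumors for 0, and PS tumors had the lowest for 86. The median log2 difference of IFPS from IF tumors was 1.71, with 312 of the 345 members above 0. Without IFPS tumors 6, 8 and 9 it was 30 of 326 (9.20%), where all genes gave 10.2%, and the median difference turned to -0.35, with 104 of the 326 above 0. Of those 30, 3 were higher in IFPS than in IF tumors. Leaving out single tumors gave 36 to 151, with 14 of the 23 tumors moving the count by more than 1.5 times, among them IFPS tumors 6 (41) and 9 (37) and PS tumor 4 (36), and scaling by library totals alone gave 54.

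The cell types of the mutated lines, which took no part in the choice of members, were compared next to ask whether the members keep the cell type they have in wildtype. The cell type in which a member was highest was the same as in wildtype for 291 members in IF (78.6%), 327 in PS (88.4%) and 332 in IFPS (89.7%), near the 80.0%, 86.3% and 87.9% of all not-enriched genes. By class the shares lay further apart in IF: 48 of the 76 members led by MECs kept MECs as their highest cell type (63.2%), against 89.2% of all not-enriched genes led by MECs, and 139 of the 160 led by adipocytes kept adipocytes (86.9%), against 62.7%. Of the 160 members led by adipocytes in wildtype, 157 were higher in adipocytes than in MECs of the mutated lines with edgeR and 0 were lower, with a median log2 fold change of 3.13. Those 157 are 98.1%, near the 96.0% of all not-enriched genes led by adipocytes, whose median was 1.04. Of the 134 members led by fibroblasts, 127 were higher in fibroblasts than in MECs and 0 were lower, with a median of 2.12 against 0.91 for all such genes. The share higher was 94.8%, near the 95.5% of all such genes. Of the 76 led by MECs, 51 were lower in adipocytes than in MECs and 10 higher, with a median of -1.25 against -0.36, and the 67.1% lower compare with 64.7% of all such genes. In fibroblasts against MECs, 50 of these 76 were lower and 8 higher, with a median of -0.90 against -0.19. The 65.8% lower stood above the 53.7% of all such genes. The other shares higher or lower between cell types given here were near the background, unlike the shares by class in IF above. The medians were further from 0 than those of all such genes, a difference that was not tested.

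Most genes differ between these cell types, and the members are to be read against that. Between adipocytes and MECs 332 of 370 members (89.7%) passed the test of edgeR, with 229 higher and 103 lower in adipocytes, where 83.6% of all genes passed, 40.3% higher and 43.3% lower. Between adipocytes and fibroblasts 331 members (89.5%) passed, 185 higher and 146 lower in adipocytes, against 81.4% of all genes, 39.6% higher and 41.8% lower. Between fibroblasts and MECs 317 members (85.7%) passed, 222 higher and 95 lower in fibroblasts, against 77.4% of all genes, 39.9% higher and 37.5% lower. Under scaling by library totals alone the median log2 fold change of all genes was -0.58 for adipocytes against MECs and -0.43 for fibroblasts against MECs, from -0.05 and 0.02 in the fit with TMM (edgeR's trimmed mean of M-values scaling). The members then split into 195 higher and 131 lower in the former comparison and 183 and 125 in the latter.

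In IF adipocytes the members led by MECs and by fibroblasts were more often higher than lower, and those led by adipocytes more often lower. Among the 73 tested members led by MECs, 45 were higher and 5 lower in IF adipocytes, with a median log2 fold change of 1.28, and of the 123 led by fibroblasts 60 were higher and 11 lower, with a median of 0.80. Of the 160 led by adipocytes, 18 were higher and 39 lower, with a median of -0.44. All not-enriched genes of these 3 classes had medians of 0.03, 0.17 and -0.23, with 26.8%, 35.5% and 13.9% higher where the members gave 61.6%, 48.8% and 11.3%. In all, 178 of 356 tested members (50.0%) passed the test of edgeR, 123 higher and 55 lower, where 48.2% of all 14304 genes passed, 26.5% higher and 21.7% lower. The total is close to the background. The wildtype adipocytes compared here also helped to set the 3 classes, so the directions of the classes are not independent of that choice. The difference between classes was not tested.

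Genes typical of the other cell types moved with this result. The 50 fibroblast-enriched genes took 0.109% to 0.113% of the counts of the 3 IF adipocyte libraries and 0.0126% to 0.0355% in wildtype adipocytes. The 450 MEC-enriched genes took 0.0803% to 0.622% in IF adipocytes and 0.0207% to 0.0467% in wildtype. The 393 adipocyte-enriched genes took 6.17% to 10.6% in IF adipocytes and 8.25% to 11.9% in wildtype. Wildtype cells chose these 3 gene sets, so the wildtype shares are not independent of that choice. The part of these gene sets in the changes of the members was not tested. No library of the other adipocyte groups reached the lowest IF value for the fibroblast-enriched or the MEC-enriched genes.

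**Figure D3:**
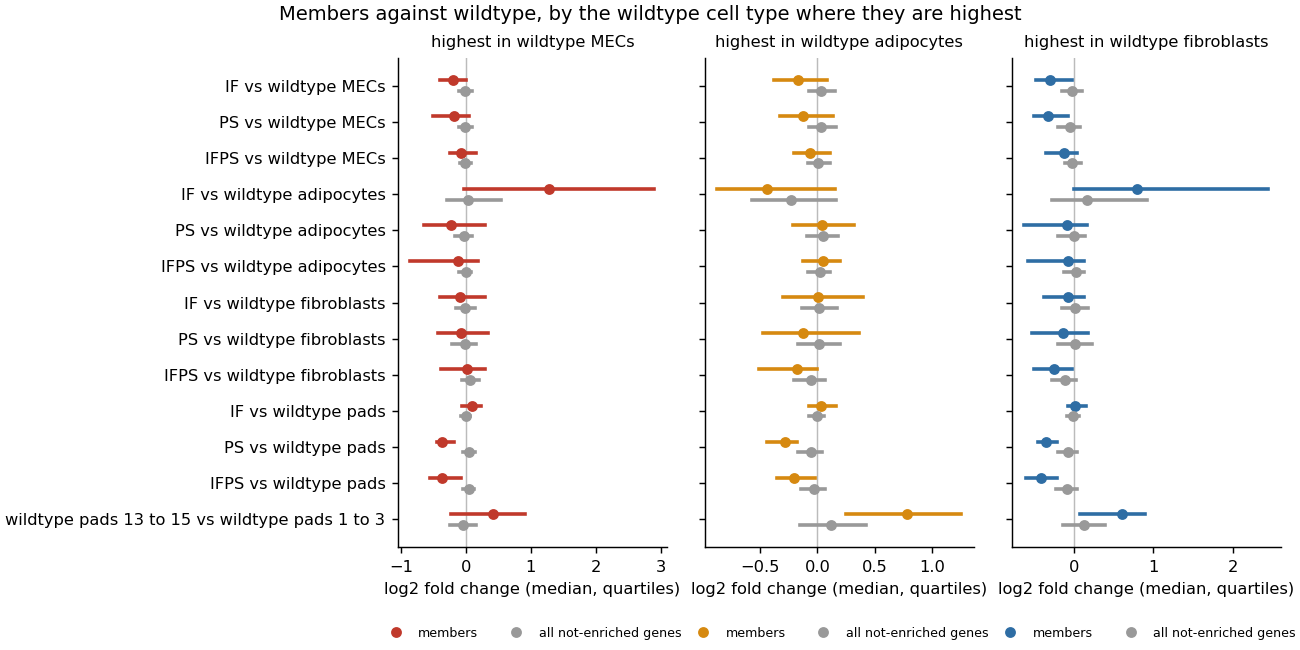
Median (points) and quartiles (lines) of the log2 fold change against wildtype, by comparison (vertical axis), for members (coloured) and all not-enriched genes (grey) that are highest in wildtype MECs, adipocytes and fibroblasts (panels). The 3 classes separate in IF adipocytes, where their medians are 1.28, -0.44 and 0.80, and shift together in the later against the earlier wildtype pads. The wildtype cells that set the classes are also the reference of the cell comparisons.

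The 2 abundant members rose in IF adipocytes by more than most members led by fibroblasts. The log2 fold changes of that class had a median of 0.80 and an upper quartile of 2.45. ENSRNOG00000003357 was at 580, 627 and 700 CPM in wildtype adipocytes and at 6303, 7020 and 7648 CPM in IF adipocytes, 3.54 higher on the log2 scale (standard error 0.22, adjusted p = 9.8e-06 by edgeR). ENSRNOG00000003897 was at 206, 214 and 412 CPM in wildtype and at 5472, 8172 and 8298 CPM in IF adipocytes, 4.81 higher on the log2 scale (standard error 0.31, adjusted p = 1.1e-05 by edgeR). IF and wildtype libraries did not overlap for either gene. In PS adipocytes the 2 genes ranged from 477 to 781 CPM and from 103 to 153 CPM, and in IFPS adipocytes from 455 to 682 CPM and from 87.5 to 108 CPM. In IF tumors both genes were below the pads of the line.

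In PS and IFPS adipocytes few members passed the test. In PS 6 of 356 members were lower and 0 higher by edgeR, where 0.378% of all genes passed, 0.266% lower and 0.112% higher. That count was not stable: it was 0 without any 1 of 9 of the 12 adipocyte libraries, 3 without IFPS adipocyte 2, 13 without wildtype adipocyte 1 and 22 without IF adipocyte 2. In IFPS 0 members passed the test of edgeR, with 0% of all genes. An unadjusted p under 0.05 in edgeR was found for 62 of 356 members and 927 of 14304 genes. In DESeq2 23 members and 219 of all genes passed in IFPS. Without wildtype adipocyte 1 the IFPS count was 6 and without IF adipocyte 2 it was 18.

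In MECs the median member lay slightly below wildtype in every line. The median log2 fold change over 346 tested members stood at -0.22 (IF), -0.21 (PS) and -0.09 (IFPS), and 95, 104 and 126 members were above 0. Few members passed the test of edgeR: 3 in IF (0.867%, where 0.817% of all genes passed) and 12 in PS (3.47%, where 2.36% passed). Of the 12 in PS, 11 were lower and 1 higher, while all genes gave 0.953% lower and 1.41% higher. Fits of only the 2 groups compared gave 1 of 339 members in IF and 0 of 342 in PS, and 23 of 14337 and 36 of 14451 genes. DESeq2 gave 17 and 37 of 346 members, and 653 and 870 of all 14688 genes. In IFPS 0 members passed the test of edgeR, where 0.374% of all genes did. An unadjusted p under 0.05 in edgeR was found for 26 of 346 members and 1588 of 14688 genes. In DESeq2 2 members and 208 of all genes passed in IFPS. Leaving out single MEC libraries gave 0 to 18 members in IF and 1 to 32 in PS, with the highest counts without wildtype MEC 2 and 0 and 1 without wildtype MEC 1, and 7 and 8 of the 12 libraries moved them by more than 1.5 times. The 3 lines share their wildtype samples, so their medians are not independent of each other.

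Fibroblasts gave more calls, in both directions and near the background. In PS 82 of 340 tested members (24.1%) passed the test of edgeR, 37 higher and 45 lower, where 21.7% of all 13879 genes passed, 10.6% higher and 11.2% lower. With library totals alone the PS split was 32 higher and 64 lower. In IF 31 members (9.12%) passed, 12 higher and 19 lower, where 7.66% of all genes passed, 3.37% higher and 4.29% lower. Fits of only the 2 groups compared gave 5 of 334 members in IF and 39 of 332 in PS, and 89 of 13452 and 1265 of 13583 genes. DESeq2 gave 52 members in IF, and 1815 of all 13879 genes. In IFPS 0 members passed the test of edgeR, where 0.0648% of all genes did. An unadjusted p under 0.05 in edgeR was found for 74 of 340 members and 2965 of 13879 genes. In DESeq2 26 members and 845 of all genes passed in IFPS. The IF count was 6, 10 and 16 without IF fibroblast 2, 3 and 1 and 11 without wildtype fibroblast 3. The PS count was 29 and 41 without PS fibroblast 2 and 3 and 40 without wildtype fibroblast 3, without which the IFPS count was 33. It was 5 without IFPS fibroblast 2 and 1 without IF fibroblast 3. PS fibroblasts were the deepest group, at 34578130 to 37293141 counts.

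By class, 9 members led by MECs were higher and 7 lower in PS fibroblasts, 17 led by adipocytes were higher and 15 lower, and 11 led by fibroblasts were higher and 23 lower. The median log2 fold changes of the 3 classes were -0.07, -0.13 and -0.13. All not-enriched genes led by fibroblasts were higher in 389 and lower in 269 of 2691 cases. The wildtype fibroblasts compared here also helped to set the classes, so these splits are not independent of that choice. ENSRNOG00000003357 was 1 of the 11 fibroblast-led members that were higher: it was at 30530, 31668 and 35316 CPM in wildtype and at 42766, 44703 and 49809 CPM in PS fibroblasts, 0.56 higher on the log2 scale (standard error 0.12, adjusted p = 0.012 by edgeR). That call was lost in the fit of only PS and wildtype. ENSRNOG00000003897, at 38941 to 45139 CPM in wildtype and 46212 to 51574 CPM in PS, differed by 0.31 on the log2 scale and did not pass (adjusted p = 0.081 by edgeR).

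Over the 9 comparisons of a line with wildtype in MECs, adipocytes and fibroblasts, 4 members were higher in 3 comparisons, 18 in 2 and 126 in 1, and 1 member was lower in 3, 18 in 2 and 99 in 1. At least 2 comparisons were higher for 22 members (5.95%, where 6.77% of all not-enriched genes were) and lower for 19 (5.14%, where 6.60% were). In 2 of the 3 cell types 15 members were higher and 14 lower (4.05% and 3.78%, where 5.39% and 4.52% of not-enriched genes were so in at least 2), and 0 were so in all 3, where 0.155% and 0.101% were. These comparisons share wildtype samples within a cell type. Of the 4, ENSRNOG00000042848 and ENSRNOG00000057404 were lower in no comparison and had the smallest p-values, and both were highest in MECs among wildtype cells. Both were picked by their calls and p-values in these 9 comparisons. Their fold changes and p-values from these comparisons, given below, are not independent of that choice.

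ENSRNOG00000042848 was a gene of the pad more than of the isolated cells. It was at 74.5 to 114 CPM in wildtype pads (median 93.5, n = 6) and at means of 7.05 CPM in MECs, 4.66 CPM in adipocytes and 1.75 CPM in fibroblasts of wildtype (n = 3 each). In fibroblasts it was at 1.68, 1.72 and 1.83 CPM in wildtype, at 3.06, 3.59 and 3.68 CPM in IF and at 3.24, 3.24 and 3.89 CPM in PS. Both lines lay above all wildtype samples and overlapped each other, and IF exceeded wildtype by 1.01 and PS by 1.05 on the log2 scale (standard errors 0.14, adjusted p = 0.0071 and 0.0020 by edgeR). In the fit of only IF and wildtype the call in IF was lost. In adipocytes it was at 1.70, 4.20 and 8.07 CPM in wildtype and at 10.8, 37.7 and 50.5 CPM in IF, 2.90 higher on the log2 scale (standard error 0.60, adjusted p = 0.0029 by edgeR). Its highest value in the tumors was 264 CPM in IFPS tumor 6, above every pad, and the other 8 IFPS tumors held 8.63 to 31.1 CPM.

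ENSRNOG00000057404 was a gene of low level. It was at 0.0821, 0.262 and 0.585 CPM in wildtype fibroblasts (2, 7 and 16 counts), at 1.11, 1.61 and 1.69 CPM in IF and at 1.27, 1.31 and 1.97 CPM in PS fibroblasts. On the log2 scale IF exceeded wildtype by 2.24 and PS by 2.33 (standard errors 0.47, adjusted p = 0.023 and 0.0085 by edgeR). The call in IF was lost without wildtype fibroblast 2, IF fibroblast 1 or IF fibroblast 2 and in the fit of only IF and wildtype, and without wildtype fibroblast 3 the differences were 3.05 in IF and 3.14 in PS. In IF adipocytes it was at 1.79, 1.79 and 2.42 CPM against 0.204, 0.768 and 0.797 CPM in wildtype, 1.86 higher on the log2 scale (adjusted p = 0.0038 by edgeR). In tumors it reached 5.50 CPM in IFPS tumor 5 and 5.38 CPM in PS tumor 9, both above all pads of their lines. With 2 to 16 counts behind the wildtype fibroblast values, the precision is limited by counting as well as by the number of samples.

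**Figure D4:**
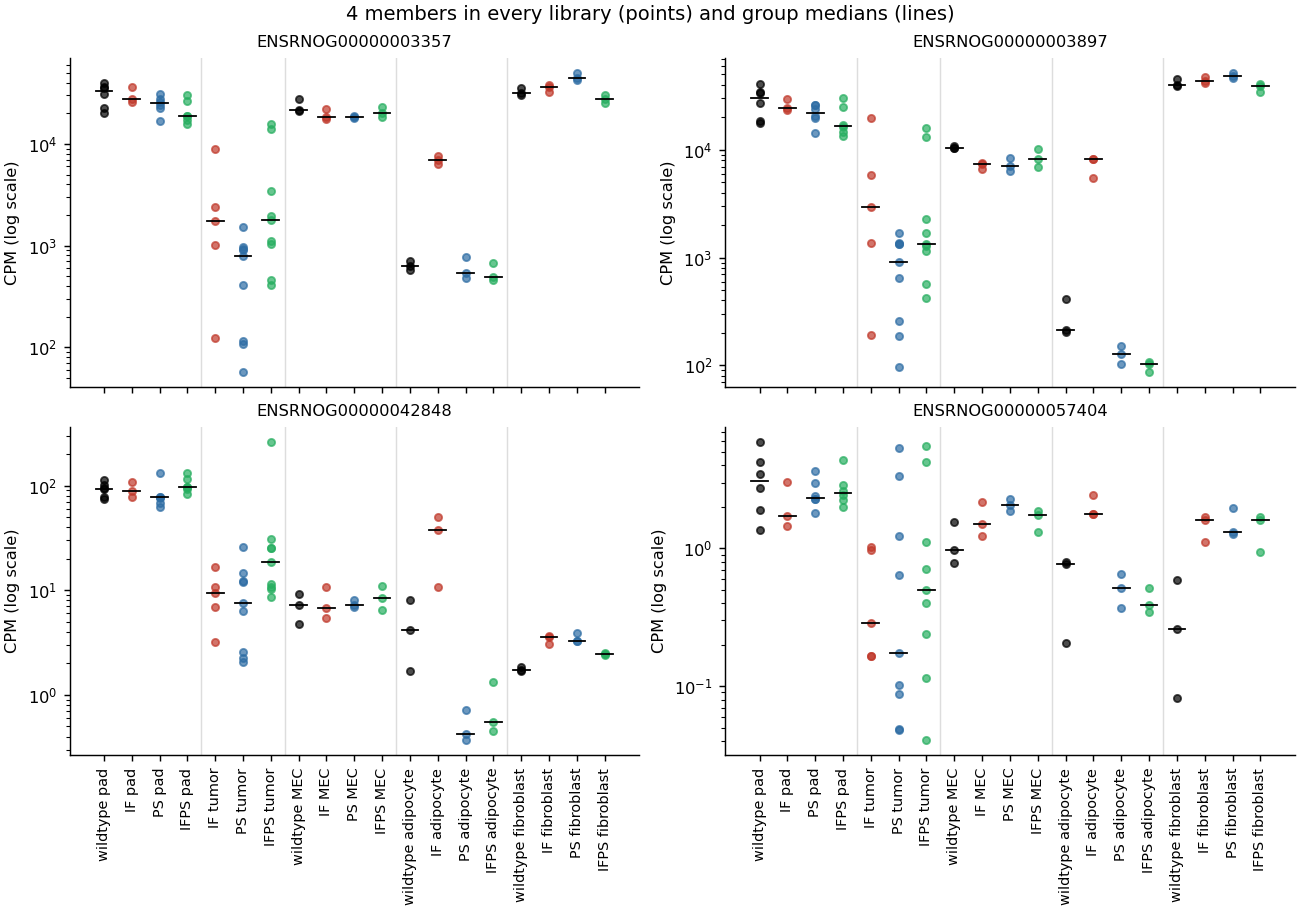
CPM on a log axis in every library (points, coloured by line) with group medians (lines) for 4 members, over pads, tumors, MECs, adipocytes and fibroblasts (horizontal axis). The pads of the 2 upper genes all lie at 13311 CPM or more and their median PS and IFPS tumors at 1776 CPM or less, and in all 4 genes every IF adipocyte library lies above every wildtype one.

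No member passed the test between pads of the mutated lines and wildtype pads. With edgeR and the set of title numbers as a covariate, 0 of 370 members passed in IF, PS and IFPS, where 0%, 0.0061% and 0% of all 16384 genes did. At an unadjusted p under 0.05 there were 3, 37 and 73 of the 370 members, and 306, 1679 and 1297 of all 16384 genes. DESeq2 gave 0, 3 and 1 members, and 0, 80 and 21 of all genes. The median member differed from wildtype by 0.04 (IF), -0.33 (PS) and -0.31 (IFPS) on the log2 scale, with 218, 45 and 77 members above 0. With pads 1 to 12 only they were 0.20, 0.09 and -0.23, so that the PS median turned its sign. The pads of the mutated lines had entered the choice of members and the wildtype pads had not, so these medians are not independent of it. On simulated counts with this design, edgeR recovered 62% of genes changed by 2-fold and 89% of genes changed by 4-fold in PS pads. The simulated pads held no difference between the sets of title numbers and no change under 2-fold. Recovery of shifts as small as these medians was therefore not measured.

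Many members differed between 2 sets of wildtype pads. Titles number the pads from 1 to 21 and name no sets. The split into 1 to 12 and 13 to 21 was made here, because the order of lines starts over with wildtype at 13. The labels do not say whether anything else separates these sets. Members took 8.96% to 11.9% of the counts in wildtype pads 1 to 3 and 13.7% to 17.3% in wildtype pads 13 to 15. These shares did not overlap. The 2 members with the highest pad levels took 3.78% to 5.79% of counts in the earlier set and 7.0006% to 8.09% in the later. Neither passed edgeR's test between the sets (adjusted p = 0.101 and 0.0761). The median CPM over members overlapped, at 27.5 to 31.8 in the earlier set and 26.5 to 31.0 in the later. The share alone does not show a rise across the members. By edgeR 123 of 370 members (33.2%) differed, 96 higher and 27 lower in the later set, where 12.9% of all 15497 genes differed, 5.92% higher and 6.96% lower. The median log2 fold change was 0.66 over members and 0.02 over all not-enriched genes, with 0.42 for members led by MECs, 0.78 for those led by adipocytes and 0.60 for those led by fibroblasts. With library totals alone the split was 75 higher and 42 lower and the median 0.36, while the median of all genes was -0.29. DESeq2 gave 230 of the 370 members, and 4052 of all 15497 genes. The count depended on every library: it was 253 without pad 15, 31 without pad 13, 10, 0 and 2 without pads 1, 2 and 3 and 0 without pad 14. No wildtype pad entered the choice of members.

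The pad set touches the choice of members too. With pads 1 to 12 alone the rule gave 310 genes, of which 304 were among the 370. IFPS and PS pads of the later set held 8.31% to 13.7% and 7.03% to 10.3% of their counts in members, against 7.02% to 11.2% and 8.83% to 12.6% in the earlier set.

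**Figure D5:**
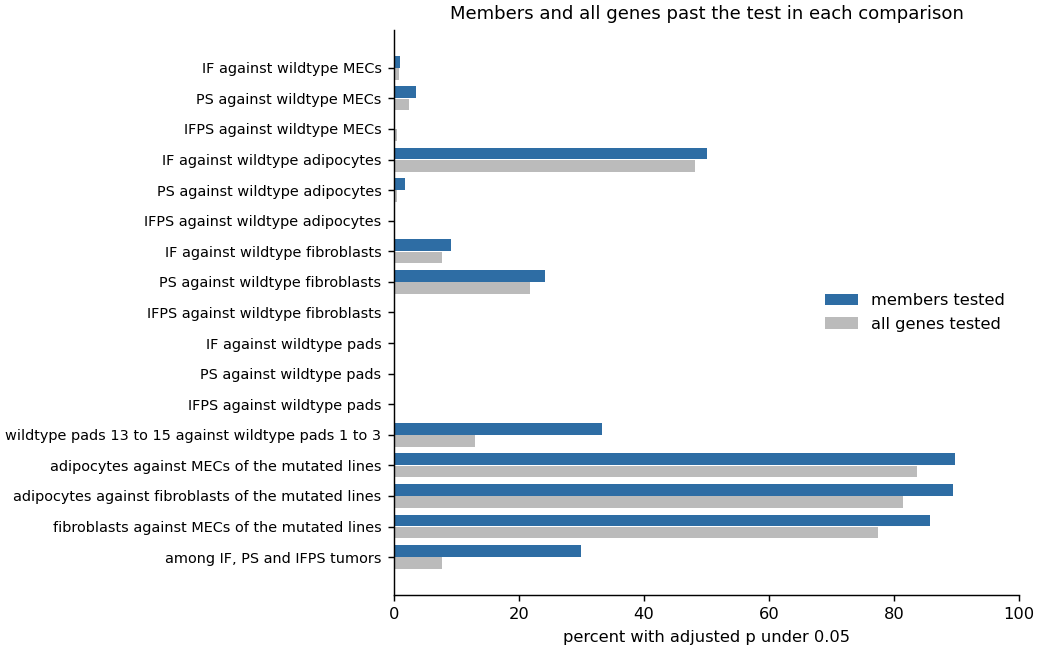
Percent of members tested (blue) and of all genes tested (grey) that passed edgeR's test at an adjusted p under 0.05 (horizontal axis) in each of 17 comparisons (vertical axis). In the later against the earlier wildtype pads 33.2% of members and 12.9% of all genes passed. Among tumors, whose values chose the members, 29.9% and 7.65% passed, and 9.20% and 10.2% did without IFPS tumors 6, 8 and 9.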

How the data were processed

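Raw counts per gene were used as deposited by the authors, as 1 table of 32883 Ensembl rat gene identifiers by 80 libraries, of which 6365 had no count. Per the labels' protocols, poly(A) libraries were sequenced as 50 bp paired-end reads. The submitters' processing notes list Trim Galore, STAR 2.5.2b and the build Rnor_6.0. The counting tool and its use of strand are not given in the sources used here, so members whose reads could also come from paralogs, overlapping genes or antisense genes are uncertain. The members and lists were chosen with earlier results of these data known.

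CPM used raw library totals. Fold changes and tests came from edgeR 4.0.16 (quasi-likelihood, R 4.3.3) with TMM normalization, filterByExpr and Benjamini-Hochberg adjustment over all genes tested, and a gene passed at an adjusted p under 0.05. Each cell type had 1 fit over 4 lines, and pads had the set of title numbers as a covariate. Cell types of the mutated lines, the 2 sets of wildtype pads and the 3 kinds of tumor had fits of their own. Of 370 members, 346 passed the low-count filter in MECs, 356 in adipocytes, 340 in fibroblasts, 345 in tumors and 370 in the others. Alternatives were RLE size factors, no filter, DESeq2 1.42.0, fits restricted to the 2 groups, pads with no covariate or only pads 1 to 12, a replicate block, other thresholds of the rule and leaving out each library. Scaling by library totals alone and leaving out IFPS tumors 6, 8 and 9 were added after the data were seen.

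On simulated counts with 200 changed genes, edgeR recovered 79% of 2-fold and 95% of 4-fold changes for PS against wildtype MECs (14549 genes), 51% and 77% in adipocytes (14137 genes) and 76% and 92% in fibroblasts (13751 genes). These counts were drawn from the kind of model that edgeR fits, so recovery in the real libraries may be lower. Title numbers were checked as pairs by correlating deviations from group means over 10202 genes. Between MECs and fibroblasts the 9 pairs of equal number had correlations of 0.16 to 0.38, and in 9 of 9 the best match was the own number. For adipocytes with MECs 2 of 9 pairs exceeded 0.1, and the own number was the best match in 6 of 9. For adipocytes with fibroblasts 4 of 9 pairs exceeded 0.1, and the own number was the best match in 7 of 9. Equal numbers thus deviated together between MECs and fibroblasts, while for adipocytes these values do not settle whether they do. What a shared number stands for is not given by the labels. Tumors carry no title number and were numbered in accession order.

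The rule for named genes asked for genes with a symbol, of which it gave 0, and allowed 2 identifiers without one in each direction. These are the 2 members with the highest pad level, both lower in tumors, and the 2 members higher in most of the 9 cell comparisons and lower in none, with ties broken by the geometric mean of p. Gene lists, marker lists, promoter sequences and protein sequences were not used here, since no identifier could be joined to a symbol. No deposited column was left out.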

Additional observations from a re-analysis of the deposited data

Results flagged for a closer look

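By Dixon's test on log2 CPM in groups of 4 to 10 samples, 2 libraries stood apart among 33 groups tested, close to the 1 in 20 that chance gives. ENSRNOG00000042848 had a log2 CPM (with 0.1 CPM added) of 8.04 in IFPS tumor 6 and of 7.04 in PS pad 1, in both cases the highest of the group. In 5 cases every sample of 1 line lay above all wildtype samples and every sample of another line below them, and these differences were not tested. ENSRNOG00000003357 was above wildtype in PS fibroblasts and below in IFPS fibroblasts, with a log2 ratio of PS to IFPS of 0.72. ENSRNOG00000003897 was above wildtype in IF adipocytes and below in PS and IFPS adipocytes, with log2 ratios of IF to PS of 5.83 and of IF to IFPS of 6.20. ENSRNOG00000042848 did the same, with log2 ratios of 6.03 and 5.42.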

How the results depend on the processing

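The number of members was 557 at 3-fold and 140 at 8-fold, and 330 to 390 when single pads or tumors were left out. With CPM scaled by TMM factors the rule gave 435 genes, of which 354 were among the 370. Under DESeq2 the members called were 17, 37 and 2 in IF, PS and IFPS MECs, 32 and 23 in PS and IFPS adipocytes, 52 and 26 in IF and IFPS fibroblasts, 3 and 1 in PS and IFPS pads and 230 between the sets of wildtype pads. All genes passing under DESeq2 numbered 653, 870 and 208 in these MECs, 497 and 219 in adipocytes and 1815 and 845 in fibroblasts. In pads 80 genes passed in PS and 21 in IFPS, and 4052 between the sets of wildtype pads. In fits of only the groups compared, the members called were 1 and 0 in IF and PS MECs and 5 and 39 in IF and PS fibroblasts. Without the low-count filter they were 11 and 3 in PS and IFPS adipocytes and 1 in IFPS fibroblasts. Among tumors, library totals alone gave 54, and leaving out IFPS tumors 6, 8 and 9 gave 30. The cause of these changes was not tested.

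Leaving out single libraries gave 0 to 18, 1 to 32 and 0 members in IF, PS and IFPS MECs, 144 to 255, 0 to 22 and 0 to 18 in adipocytes, 6 to 45, 29 to 82 and 0 to 33 in fibroblasts, 0, 0 to 1 and 0 in pads, 0 to 253 between the sets of wildtype pads and 36 to 151 among tumors. With a replicate block on the title number, 297 members passed between adipocytes and MECs, 302 between adipocytes and fibroblasts and 287 between fibroblasts and MECs, each within 1.5 times of the fit without it. Over all counts of members, 330 alternative values lay within 1.5 times of the reported one and 83 did not. For the 4 named genes, 463 alternative values kept their direction and passed, 10 kept their direction and no longer passed, and 0 reversed. Genes under about 1 CPM, such as ENSRNOG00000057404, are limited by their counts.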
